A study of Mus musculus with 9 samples.

Results

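Notch signalling was read in mouse cumulus cells through 9 genes: the receptors Notch1, Notch2 and Notch3, the ligands Jag1 and Jag2, the effectors Hes1, Hey2 and Heyl, and the receptor-modifying enzyme Lfng. Every probe set annotated to 1 of these symbols and to no other gene was taken, which gave 18 of the 34958 probe sets with 1 gene on the array, and 9 of 18194 genes. Cumulus cells are the granulosa cells in direct contact with the oocyte. They came from 3 genotypes with 3 arrays each. DM females were Bmp15-/-Gdf9+/-, so they lacked BMP15 and carried 1 mutant Gdf9 allele. Bmp15-/- females lacked BMP15 with no Gdf9 mutation in their label, and wildtype females had neither mutation. BMP15 and GDF9 are growth factors that the oocyte secretes and to which cumulus cells respond. All females were on a B6/129 background, were 4 to 5 months old and had been primed for 48 hours with 5 IU of eCG, a gonadotropin that makes follicles grow. Each array held RNA of 75 to 100 cumulus-oocyte complexes from large antral follicles of 3 to 4 pooled mice, isolated with 5 µM milrinone and stripped of the oocyte. The labels name no promoter or cell type that restricts either mutation.

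Notch receptors are single-pass membrane proteins that bind Jagged or Delta-like ligands on a neighbouring cell. Binding leads to cleavage by ADAM proteases and then by gamma-secretase, and the freed intracellular part joins the DNA-binding protein RBPJ and switches on target genes. Among the classical targets are the HES and HEY genes, which encode basic helix-loop-helix repressors. In the ovary the pathway is known for contact between the oocyte, which makes Jagged ligands, and the granulosa cells, which carry Notch receptors, and for its action in blood vessel walls. Some HEY genes also respond to BMP signals through SMAD proteins in other cell types.

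Hey2 and Jag2 are 2 of the 3 genes with a difference that passed the test below, Jag2 on 1 of its 2 probe sets. Their promoters are shown because the first is a classical target of the pathway and the second a ligand. The windows run from 250 bases before to 50 bases after the annotated start, 5′ to 3′ on the gene's strand, from RefSeq on build GRCm38.p6, which held 7 of the 9 genes. Heyl and Hes1 were not matched there. Hey2 lies on the minus strand at chr10:30842734-30843033, with a GC content of 72%, and Jag2 on the minus strand at chr12:112929446-112929745, with a GC content of 86%. Capitals mark TGGGAA, the core of the RBPJ motif, on either strand (TTCCCA on the other), and GGCGCC, a motif bound by BMP-activated SMAD proteins.
Hey2: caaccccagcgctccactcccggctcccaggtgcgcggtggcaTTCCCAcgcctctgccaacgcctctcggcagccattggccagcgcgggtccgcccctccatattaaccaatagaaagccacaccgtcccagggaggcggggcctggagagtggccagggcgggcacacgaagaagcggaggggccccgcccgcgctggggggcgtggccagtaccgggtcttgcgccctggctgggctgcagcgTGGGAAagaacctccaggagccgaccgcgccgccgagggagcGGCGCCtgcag
Jag2: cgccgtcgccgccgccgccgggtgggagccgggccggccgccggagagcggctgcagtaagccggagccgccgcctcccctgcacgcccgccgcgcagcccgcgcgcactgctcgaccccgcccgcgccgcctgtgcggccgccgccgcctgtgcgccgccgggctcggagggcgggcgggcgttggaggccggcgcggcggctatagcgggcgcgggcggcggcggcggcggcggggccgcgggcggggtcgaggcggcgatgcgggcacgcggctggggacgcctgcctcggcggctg
The Hey2 window held the RBPJ core at -207 and -3 and the SMAD motif at 40, counted from the start. The Jag2 window held neither motif. Among 32851 promoters of the same length, 25.6% held TGGGAA and 11.9% held GGCGCC on either strand. Of the 7 matched genes, 2 (Hey2 and Lfng) held TGGGAA and 1 (Hey2) held GGCGCC. The N box bound by HES proteins, CACNAG, was also searched on both strands and occurred in 4 of the 7 windows and in 42.5% of all promoters. In the 7 windows no matches of different motifs overlapped. These are matches of letters and not sites shown to be bound.

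Values are log2 expression levels from the deposited table, so a difference of 1 is a doubling. Levels of different probe sets are not compared, since probes differ in how well they hybridise. A probe set entered the tests when 3 or more of the 9 arrays lay over their own 40th percentile, which was between 4.97 and 5.05, and it was called at an adjusted p under 0.05 over all 27991 probe sets tested. Of the 18 Notch probe sets 15 were tested, and all 15 had arrays above that level in each genotype. Both probe sets of Notch3 and 1 of the 2 of Lfng were too dim. Array totals have no meaning on this scale, and 3 arrays per genotype limit the precision.

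Within a genotype, arrays correlated at 0.988 to 0.995 (Pearson, across probe sets), and between genotypes at 0.975 to 0.992. The targeted Bmp15 (1420006_at), a transcript of the oocyte, lay between 5.05 and 5.09 on the DM arrays and between 5.08 and 5.10 on the Bmp15-/- arrays, and had values of 5.10, 9.58 and 8.41 on wildtype arrays 1, 2 and 3. Wildtype array 1 therefore did not differ from the mutants in this gene. Gdf9 (1448120_at) lay between 4.67 and 5.63 in DM and between 4.99 and 6.59 in Bmp15-/-, and between 5.03 and 8.12 in wildtype. Oocyte markers, summed over 16 probe sets, stood apart on Bmp15-/- array 2 (11.01 as the log2 of the sum) and wildtype array 2 (11.06), against at most 10.02 on the other arrays. Of 30 probe sets of granulosa and cumulus markers, 29 were above the filter, and their summed level, as a log2, was 16.64 to 16.76 in DM, 16.79 to 16.84 in Bmp15-/- and 16.77 to 16.83 in wildtype. These markers were not constant: 12 of the 29 were called lower and 2 higher in DM against wildtype, and 5 lower and 0 higher in Bmp15-/- against wildtype.

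DM cumulus cells had less RNA of the effectors Heyl and Hey2 than wildtype cells, and of the ligand Jag2 on 1 of its 2 probe sets. No probe set of Notch1, Notch2, Jag1, Hes1 or Lfng passed the test. In all, 5 of the 15 Notch probe sets, from 3 genes, were called lower in DM than in wildtype and 0 higher. Over all probe sets tested, 24.2% were called, 16.2% lower and 8.09% higher. In Bmp15-/- against wildtype, 2 of the 15, 1 each of Heyl and Jag2, were called lower and 0 higher, where 6.33% of all probe sets were called, 4.28% lower and 2.05% higher. In DM against Bmp15-/- 0 of 15 were called with limma, where 1.93% of all were called in either direction (0.922% lower and 1.01% higher), and 3 of 15, all of Heyl, had an unadjusted p under 0.05. Groups did not overlap, with the mutant lower, for 5 Notch probe sets in DM against wildtype (26.5% of all probe sets), 4 in Bmp15-/- against wildtype (21.9%) and 3 in DM against Bmp15-/- (11.8%). With the mutant higher there were 0 in each, where all probe sets gave 14.8%, 12.3% and 8.35%. The median log2 difference of the 15 probe sets was 0.03 in DM against wildtype, where that of all probe sets was -0.06. It was -0.03 in Bmp15-/- against wildtype, where that of all was -0.04. The 3 comparisons share arrays, so their values are given side by side and are not independent of each other.

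**Figure D1:**
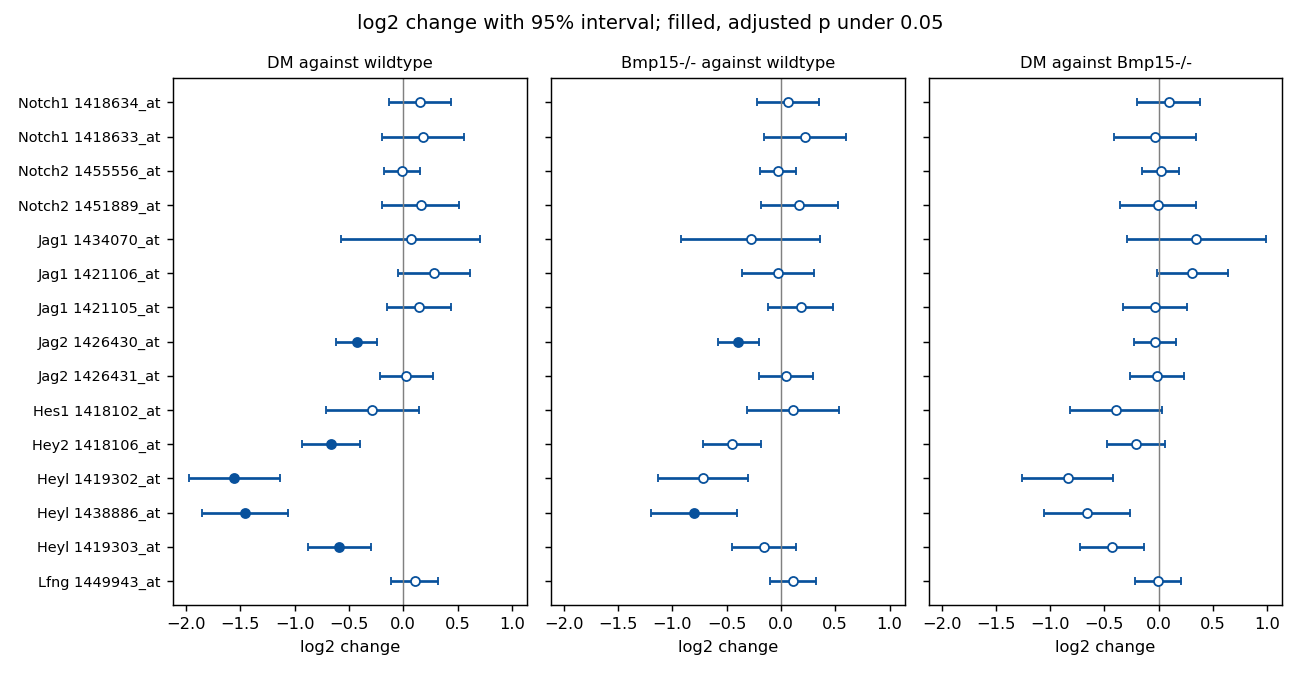
Log2 difference of each of the 15 tested Notch probe sets in DM against wildtype, Bmp15-/- against wildtype and DM against Bmp15-/- (horizontal axis, log2 units), with its 95% interval from the fit. Filled points passed at an adjusted p under 0.05: 5 probe sets in the left panel, 2 in the middle and 0 in the right, all to the left of 0.

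Heyl encodes a HEY repressor that Notch signals switch on and that is best known from vessel walls and skeletal muscle. On its probe set 1419302_at it had log2 levels of 6.97, 7.59 and 7.69 in DM, 8.20, 8.40 and 8.17 in Bmp15-/- and 8.80, 8.97 and 9.14 in wildtype. The 3 genotypes did not overlap, with DM lowest, Bmp15-/- between and wildtype highest. It fell by 1.56 ± 0.18 (SE) on the log2 scale in DM against wildtype, which is 2.94-fold, at an adjusted p of 0.000731. In Bmp15-/- against wildtype the difference was -0.72 ± 0.18 (SE, adjusted p 0.053), and in DM against Bmp15-/- it was -0.84 ± 0.18 (SE, adjusted p 0.0575), neither of which passed. The Bmp15-/- difference passed when DM array 1 or 3 was left out of the fit (adjusted p 0.0146 and 0.0397), and the difference between the mutants when DM array 2 was (adjusted p 0.046). With all arrays both differences passed under a 60th percentile filter (adjusted p 0.0435 and 0.0449) or 1 probe set per gene (0.0399 and 0.0413).

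A second Heyl probe set, 1438886_at, had log2 levels of 5.71, 5.97 and 5.82 in DM, 6.53, 6.47 and 6.47 in Bmp15-/- and 7.11, 7.02 and 7.75 in wildtype. The order of the genotypes was the same, again with no overlap, and the Bmp15-/- arrays lay close together. It fell by 1.46 ± 0.18 (SE) in DM against wildtype, or 2.75-fold (adjusted p 0.00077), and by 0.80 ± 0.18 (SE) in Bmp15-/- against wildtype, or 1.74-fold (adjusted p 0.0321). The difference of DM from Bmp15-/- was -0.66 ± 0.18 (SE, adjusted p 0.0931) and passed only when wildtype array 3 was left out of the shared fit (adjusted p 0.0316), among the 9 fits without 1 array. The Bmp15-/- call was lost when any 1 of the Bmp15-/- arrays or wildtype array 1 was left out, with adjusted p values of 0.0561 to 0.105.

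The remaining Heyl probe set, 1419303_at, had log2 levels of 5.45, 5.23 and 5.64 in DM, 5.96, 5.82 and 5.84 in Bmp15-/- and 5.82, 6.15 and 6.11 in wildtype. DM lay below both other genotypes on every array, and Bmp15-/- and wildtype overlapped. It fell by 0.59 ± 0.13 (SE) in DM against wildtype, or 1.50-fold (adjusted p 0.0117), a smaller difference than on the other 2 probe sets of the gene. Bmp15-/- against wildtype gave -0.16, with a 95% interval of -0.45 to 0.14 (adjusted p 0.501).

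Hey2 encodes a HEY repressor of the developing heart and arteries. On its only probe set, 1418106_at, it had log2 levels of 11.42, 11.67 and 11.26 in DM, 11.68, 11.78 and 11.52 in Bmp15-/- and 12.06, 12.15 and 12.12 in wildtype. Every wildtype array was above every mutant array, and DM and Bmp15-/- overlapped. Mean levels were 11.45 ± 0.21 in DM, 11.66 ± 0.13 in Bmp15-/- and 12.11 ± 0.05 in wildtype (SD, n = 3 each). Hey2 fell by 0.66 ± 0.12 (SE) in DM against wildtype, or 1.58-fold (adjusted p 0.00488). Bmp15-/- against wildtype gave -0.45 ± 0.12 (SE, adjusted p 0.0561) and DM against Bmp15-/- gave -0.21 (95% interval -0.48 to 0.06), neither of which passed in the main fit. The Bmp15-/- difference passed without DM array 2 or 3 (adjusted p 0.0285 and 0.0371). With all arrays it passed under a 60th percentile filter (adjusted p 0.0449), 1 probe set per gene (0.0422) or an intensity trend in the variance prior (0.0304). The size depended on the scaling of the arrays: with each array scaled to a common median and interquartile range, the DM difference was -0.35 (adjusted p 0.0443) and the Bmp15-/- difference was -0.13.

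**Figure D2:**
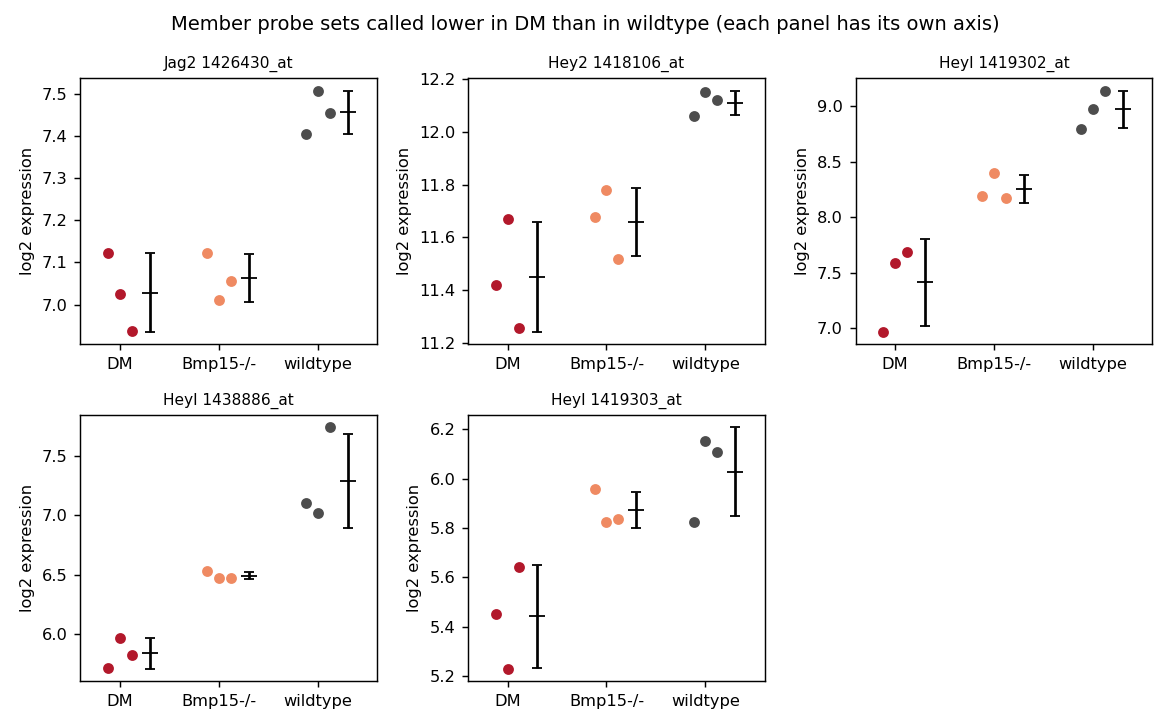
Log2 expression on each array of the 5 Notch probe sets called lower in DM than in wildtype, by genotype; points are arrays and bars are the mean with its SD over 3 arrays. Each panel has its own vertical axis that does not start at 0; the DM points lie below every wildtype point in all 5 panels.

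Hes1, a repressor that is the textbook readout of Notch activity, had log2 levels of 6.02, 5.67 and 5.73 in DM, 6.44, 5.87 and 6.31 in Bmp15-/- and 6.32, 5.76 and 6.21 in wildtype on its 1 probe set, 1418102_at. Array 2 was the lowest of each genotype, and all 3 genotypes overlapped. DM against wildtype gave -0.29, with a 95% interval of -0.71 to 0.14 (adjusted p 0.305), and Bmp15-/- against wildtype gave 0.11 (-0.32 to 0.54, adjusted p 0.77). DM against Bmp15-/- gave -0.40 (-0.82 to 0.03, adjusted p 0.305). The interval against wildtype thus includes a fall as large as that of Hey2.

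Jag2 is a transmembrane ligand that binds Notch receptors on adjoining cells. On 1426430_at it had log2 levels of 7.12, 7.03 and 6.94 in DM, 7.12, 7.01 and 7.06 in Bmp15-/- and 7.41, 7.51 and 7.46 in wildtype. Both mutants were below every wildtype array and overlapped each other. Jag2 fell by 0.43 ± 0.08 (SE) in DM against wildtype, or 1.35-fold (adjusted p 0.00726), and by 0.39 ± 0.08 (SE) in Bmp15-/- against wildtype, or 1.31-fold (adjusted p 0.0303). The Bmp15-/- call was lost without Bmp15-/- array 2 or 3 or without any 1 wildtype array (adjusted p 0.0696 to 0.106), and under quantile normalization (-0.28, adjusted p 0.0862) and interquartile range scaling (-0.30, adjusted p 0.0642). DM against Bmp15-/- gave -0.04, with a 95% interval of -0.23 to 0.16 (adjusted p 0.864). The second probe set, 1426431_at, lay at 5.47 to 5.88 in DM, 5.63 to 5.76 in Bmp15-/- and 5.61 to 5.66 in wildtype, and did not pass, with differences of 0.03 (-0.22 to 0.27) in DM and 0.04 (-0.20 to 0.29) in Bmp15-/- against wildtype. The 2 probe sets of this gene therefore disagreed.

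Jag1, the other Jagged ligand, had 3 probe sets and none passed in any comparison. On 1434070_at its log2 levels were 8.10, 8.57 and 9.18 in DM, 8.11, 8.29 and 8.41 in Bmp15-/- and 9.08, 8.31 and 8.26 in wildtype. The spread within a genotype was wide, with 1 high array in DM and 1 in wildtype, so the 95% interval of the DM difference ran from -0.58 to 0.71 around 0.07 (adjusted p 0.888). The other probe sets of Jag1 gave 0.28 (1421106_at, -0.04 to 0.61) and 0.15 (1421105_at, -0.15 to 0.44) in DM against wildtype. In Bmp15-/- against wildtype the 3 differences ran from -0.28 to 0.18.

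Notch2, 1 of the receptors that granulosa cells are known to carry, varied little in the deposited values of 1455556_at. Its log2 levels were 12.93, 12.86 and 12.92 in DM, 12.90, 12.89 and 12.86 in Bmp15-/- and 12.89, 12.89 and 12.95 in wildtype, so that all 9 arrays lay within 0.09. DM against wildtype gave -0.01, with a 95% interval of -0.18 to 0.16 (adjusted p 0.935), and Bmp15-/- against wildtype gave -0.03 (-0.19 to 0.14). This depended on the scaling: with a common median and interquartile range the differences were 0.35 in DM (adjusted p 0.0571) and 0.35 in Bmp15-/- (adjusted p 0.098), still not passing but above these intervals. The other probe set, 1451889_at, lay at 6.34 to 6.87 in DM, 6.37 to 6.78 in Bmp15-/- and 6.33 to 6.59 in wildtype and gave 0.16 (-0.19 to 0.51) in DM against wildtype.

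Notch1, the receptor of most Notch studies, had log2 levels of 6.78, 6.51 and 6.48 in DM, 6.36, 6.40 and 6.74 in Bmp15-/- and 6.52, 6.40 and 6.39 in wildtype on 1418634_at. The genotypes overlapped. DM against wildtype gave 0.16 on this probe set (-0.13 to 0.44, adjusted p 0.403) and 0.18 on 1418633_at (-0.20 to 0.56, adjusted p 0.465), and Bmp15-/- against wildtype gave 0.07 and 0.22. None passed.

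Notch3, a receptor best known from vascular smooth muscle, was dim on all 9 arrays and was not tested. On 1421964_at its log2 levels were 4.32, 4.02 and 3.96 in DM, 4.39, 4.25 and 4.09 in Bmp15-/- and 5.01, 4.95 and 4.72 in wildtype. On 1421965_s_at they were 4.67, 4.57 and 4.29 in DM, 4.28, 4.36 and 4.33 in Bmp15-/- and 4.97, 5.02 and 4.61 in wildtype. Every wildtype array was above every mutant array on the first probe set, yet all values were under the 40th percentile, where the log2 scale is compressed. In a fit of all probe sets without the filter, the difference on 1421964_at was -0.79 in DM against wildtype (adjusted p 0.00403) and -0.65 in Bmp15-/- against wildtype (adjusted p 0.0304). On 1421965_s_at neither passed, at -0.36 (adjusted p 0.1) and -0.54 (adjusted p 0.0577).

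Lfng adds a sugar to the Notch extracellular part and so shifts which ligands a receptor prefers. On 1449943_at its log2 levels were 5.49, 5.36 and 5.33 in DM, 5.46, 5.36 and 5.36 in Bmp15-/- and 5.36, 5.14 and 5.36 in wildtype. The genotypes overlapped, and DM against wildtype gave 0.10 (-0.11 to 0.32, adjusted p 0.456). The other probe set, 1420643_at, lay between 4.73 and 5.06 on the 9 arrays and was not tested.

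**Figure D3:**
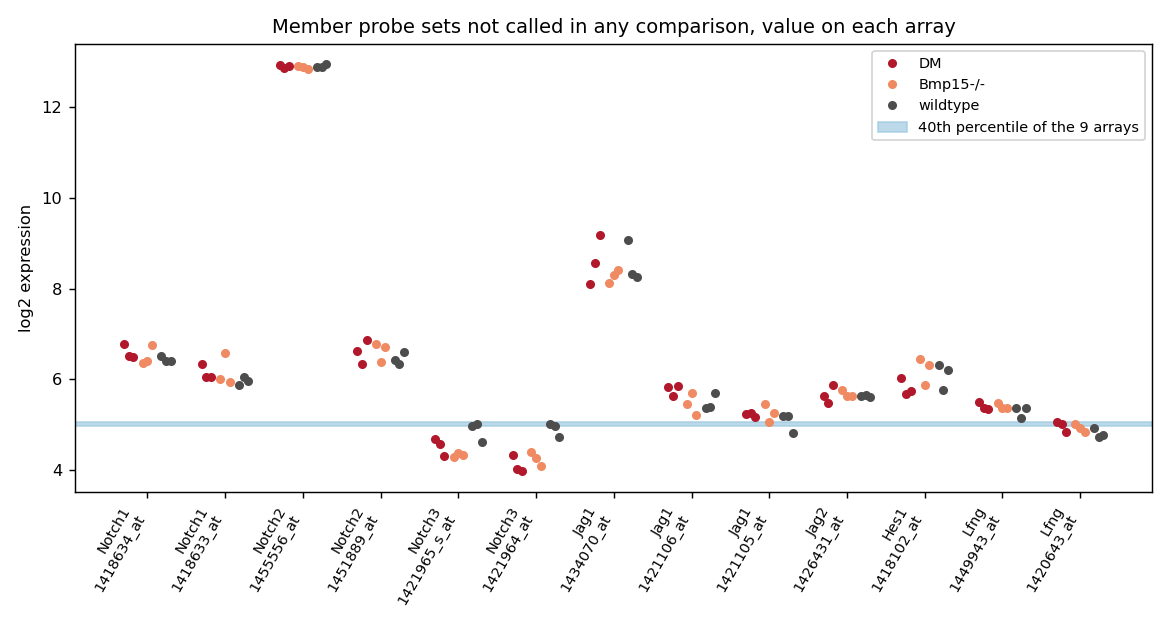
Log2 expression on each array of the 13 Notch probe sets that were called in no comparison, with DM, Bmp15-/- and wildtype side by side in each column. The band is the range of the 40th percentile over the 9 arrays, 4.97 to 5.05; the 2 Notch3 probe sets lie under or within it, and Notch2 1455556_at lies near 12.9 in all genotypes.

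Other genes of the pathway were read from lists by role, with 50 of 54 listed genes on the array, 104 probe sets and 76 tested. In DM against wildtype 5 of the 76 were called higher and 9 lower, with a median difference of -0.07. In Bmp15-/- against wildtype 1 was higher and 4 lower, with a median of -0.04, where 2.05% of all probe sets were called higher and 4.28% lower. In DM against Bmp15-/- 3 were higher and 0 lower, where 1.01% of all were called higher and 0.922% lower. Among the lower calls of each mutant against wildtype, 1 was a Dlk1 probe set that passed the filter only through the wildtype arrays. Compared with the shares of all probe sets given above, the lower calls in DM (9 of 76) were fewer than 16.2% and the higher calls (5 of 76) fewer than 8.09%. The split depended on the scaling, with 7 higher and 9 lower after quantile normalization and 13 higher and 6 lower after interquartile range scaling. Without both arrays highest in oocyte markers the 14 calls in DM against wildtype became 6, and without wildtype array 1 they became 9. The 5 calls in Bmp15-/- became 2 without Bmp15-/- array 2 or 3 or without any 1 wildtype array, and the 3 between the mutants became 0 without DM array 3, Bmp15-/- array 1 or Bmp15-/- array 2, and 1 without DM array 1 or wildtype array 3. In DM against wildtype the calls of Hey1, Dner, Psen2, Maml1, Snw1 and Dtx3 held with any 1 array left out. Those of Furin, Adam17, Kat2a, Pofut1, Dtx4 and Nedd4 were each lost in 1 to 5 of these 9 fits, wildtype arrays among those left out for each of them.

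Among the other HES and HEY genes and direct targets, 1 of 6 tested probe sets was called lower in each mutant against wildtype. It was that of Hey1, the remaining HEY gene. Over all probe sets 16.2% were called lower in DM and 4.28% in Bmp15-/- against wildtype. Hey1 (1415999_at) had log2 levels of 6.57, 5.97 and 6.25 in DM, 6.48, 6.67 and 6.59 in Bmp15-/- and 8.26, 8.47 and 8.55 in wildtype. Wildtype was far above both mutants, which overlapped. Hey1 fell by 2.17 ± 0.15 (SE) in DM against wildtype, or 4.49-fold (adjusted p 8.94e-05), and by 1.85 ± 0.15 (SE) in Bmp15-/- against wildtype (adjusted p 0.000493). All 3 HEY genes were thus called lower in DM than in wildtype, on 5 probe sets with Heyl and Hey2, where 16.2% of all probe sets were. Hey1 is outside the 9 genes and was named because its probe set was called. Hes2, Hes3, Hes5 and Hes6 did not pass, with differences of -0.15 to 0.04 in DM against wildtype, and Hes7 and Nrarp were dim. The ligands Dll1 and Dll3 and the receptor Notch4 were dim on every probe set.

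The 2 genes of the non-canonical ligand list that were called had opposite signs. Dlk1, a membrane protein of the Delta family that lacks the usual receptor-binding part, had log2 levels of 3.75, 3.72 and 3.68 in DM, 3.77, 3.89 and 3.86 in Bmp15-/- and 6.21, 6.31 and 6.21 in wildtype on 1449939_s_at. Only the wildtype arrays were above the 40th percentile, so the probe set was tested because of them. A call of either mutant against wildtype could then only be lower. Both mutants lay under that percentile on every array, so the size of the difference is not known. With values floored at the 40th percentile it was -1.23 in DM and -1.21 in Bmp15-/- against wildtype. Its other tested probe set, 1442724_at, did not pass (-0.47 in DM). Dner, a neuronal protein with EGF-like repeats, rose by 1.14 in DM (adjusted p 0.0113) and by 1.14 in Bmp15-/- (adjusted p 0.0325, lost without any 1 Bmp15-/- or wildtype array) on 1456379_x_at, at 7.60 to 8.61 in DM, 7.80 to 8.35 in Bmp15-/- and 6.70 to 7.17 in wildtype.

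Of 16 tested probe sets of the genes that cut the receptor, 2 were called higher and 1 lower in DM against wildtype, where 24.2% of all probe sets were called. Psen2, a catalytic subunit of gamma-secretase, rose by 0.63 in DM against wildtype (adjusted p 0.00342), and Furin, the protease that matures the receptor, rose by 0.34 (adjusted p 0.0188). Adam17, which can make the outer cut, fell by 0.41 on 1421858_at (adjusted p 0.0235, but -0.14 with adjusted p 0.395 under interquartile range scaling) and did not pass on its other probe sets. Psen2 was also 0.61 higher in DM than in Bmp15-/- (adjusted p 0.0272), and Aph1a, another gamma-secretase subunit, was 0.98 higher on 1451554_a_at (adjusted p 0.0438). The Aph1a probe sets disagreed: the other 2 gave -0.01 (1424979_at) and -0.21 (1424980_s_at), and neither passed. Between the mutants the calls of Psen2 and Aph1a were lost in 5 and 7 of the 9 fits without 1 array.

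Of 18 tested probe sets of the nuclear complex, 3 were called lower and 0 higher in DM against wildtype, close to the 16.2% called lower over all probe sets. The 3 belonged to different genes, which each had other probe sets that did not pass. They were the coactivator Maml1 by 0.55 (1452188_at, adjusted p 0.00316), Snw1, which binds RBPJ, by 0.46 (1429003_at, adjusted p 0.00306), and the acetyltransferase Kat2a by 0.53 (1422972_s_at, adjusted p 0.0266). Rbpj itself had 3 probe sets, and none passed. Pofut1, which adds the fucose that Notch receptors need, fell by 0.41 and 0.48 on 2 probe sets (adjusted p 0.0149 and 0.0167), the only called gene of 4 among the other sugar transferases. Its remaining probe set, 1450137_at, did not pass, with means of 4.90 in DM and 5.12 in wildtype. Of the 14 genes of endocytosis and ubiquitin transfer, Dtx3 rose by 0.86 (adjusted p 0.000559) and Dtx4 by 0.44 (adjusted p 0.0176), both ligases of the Deltex family. Nedd4 fell by 0.45 on 1451109_a_at (adjusted p 0.0279, but -0.21 with adjusted p 0.196 under interquartile range scaling), and did not pass on 1421955_a_at or 1450431_a_at. Pofut1 also lost its calls under other settings, on 1443881_at under that scaling (adjusted p 0.0837) and on 1456323_at, where all DM arrays were under the 40th percentile, with values floored there (-0.18, adjusted p 0.128).

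**Figure D4:**
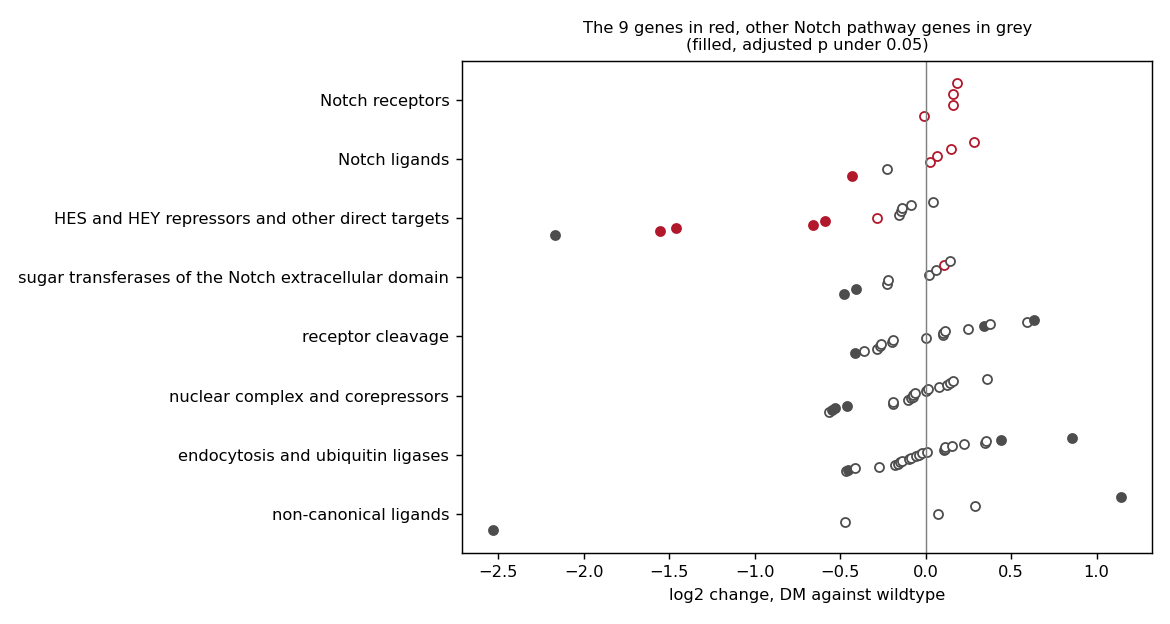
Log2 difference of DM against wildtype (horizontal axis, log2 units) for each tested probe set of the 9 genes (red) and of the other Notch pathway genes (grey), in rows by role. Filled points passed at an adjusted p under 0.05; the called points of the HES and HEY row are Hey1, Hey2 and Heyl, all lower in DM. The leftmost point is a Dlk1 probe set whose mutant arrays were all under the 40th percentile, so its position is not a measured size.

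Cells of vessel walls also express HEY genes and Notch3, and their markers were read beside these results. In bulk RNA, fewer cells of a type and less RNA per cell cannot be told apart. Of 17 endothelial probe sets 8 were dim on all 9 arrays, and no array exceeded the filter for Pecam1, Tek, Tie1, Kdr, Emcn, Robo4 or Sox17. Other endothelial markers did exceed it: Cdh5 (1422047_at), Cldn5 and Esam lay just above it on 8 or 9 arrays, at 4.90 to 5.46, Egfl7 lay at 5.80 to 7.97 over its 4 probe sets, and Vwf exceeded it on 2 wildtype arrays. The summed endothelial level, as a log2, was 9.76 to 9.79 in DM, 9.79 to 9.87 in Bmp15-/- and 9.81 to 9.85 in wildtype, with 1 of 8 tested probe sets called lower in DM and 0 higher. That probe set, Cdh5 1433956_at, lay at 4.53 to 4.70 in DM, under the 40th percentile on every array, 5.02 to 5.17 in Bmp15-/- and 5.16 to 5.46 in wildtype, and its difference in DM was -0.33 with values floored at that percentile. Of 23 pericyte and smooth muscle probe sets 11 were dim on all 9 arrays, and the sums were 9.99 to 10.07, 9.72 to 9.86 and 9.93 to 9.997 in the same order of genotypes. In that list 1 of 12 tested probe sets was called higher and 2 lower in DM against wildtype. Over all probe sets 8.09% were called higher and 16.2% lower. Acta2, smooth muscle actin, rose by 2.09 in DM (1416454_s_at). Its other tested probe set, 1456658_at, did not pass, with means of 5.13 in DM and 4.93 in wildtype. Pdgfrb, a receptor of pericytes, fell by 0.37 in DM (1417148_at, a call lost in 7 of the 9 fits without 1 array). On the other Pdgfrb probe set, 1436970_a_at, levels were 4.48 to 4.75 in DM, 4.01 to 5.02 in Bmp15-/- and 6.57 to 6.89 in wildtype. Only the wildtype arrays exceeded the filter there, so it was tested because of them, and the floored difference in DM was -1.77. The part of these cells in the Heyl, Hey2 and Hey1 results was not tested.

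Other measures moved with genotype. Among the granulosa and cumulus markers, 12 of 29 tested probe sets, from 8 of 14 genes, were called lower in DM than in wildtype. Over all probe sets 16.2% were called lower. Another 2, from 2 genes, were called higher, where 8.09% of all probe sets were. Slc38a3 (1418706_at) lay higher in DM, at 8.47 to 9.07, than in Bmp15-/- (7.23 to 7.84) and wildtype (7.45 to 7.63). Kitl, the ligand that granulosa cells offer to the oocyte's KIT receptor, had levels of 6.36 to 7.23 in DM, 6.34 to 6.73 in Bmp15-/- and 8.32 to 8.57 in wildtype on 1448117_at. Its differences from wildtype were -1.66 in DM (adjusted p 0.00089) and -1.84 in Bmp15-/- (adjusted p 0.00255). Inhbb, an inhibin and activin subunit, had levels of 6.06 to 7.19 in DM, 7.69 to 7.88 in Bmp15-/- and 8.56 to 8.68 in wildtype on 1426859_at, the order seen for Heyl. On this probe set Inhbb fell by 2.11 in DM against wildtype (adjusted p 0.000712). The other, 1426858_at, lay closer together, at 12.57 to 13.25 in DM, 13.44 to 13.59 in Bmp15-/- and 13.62 to 13.66 in wildtype. Its call in DM against wildtype was lost under interquartile range scaling (-0.37, adjusted p 0.0548). Inha, the inhibin alpha subunit, lay at 13.08 to 13.31 in DM, 13.29 to 13.33 in Bmp15-/- and 13.30 to 13.33 in wildtype. The theca and stroma sum was 12.15 to 12.31 in DM, 11.77 to 11.94 in Bmp15-/- and 11.55 to 11.78 in wildtype. Its largest term was Ptch1 (1428853_at), at 11.85 to 11.95, 11.39 to 11.62 and 11.24 to 11.53 in that order. Of its 18 probe sets 10 were dim on all 9 arrays, and Cyp17a1 exceeded the filter on 1 array. The surface epithelium sum was 10.99 to 11.07, 10.86 to 11.26 and 10.52 to 10.66. Its largest terms were probe sets of Krt8, and 7 of its 15 probe sets were dim on all 9 arrays. In DM against wildtype, 4 of 7 tested theca and stroma probe sets were called higher and 0 lower. For surface epithelium it was 3 of 8 higher and 0 lower, where 8.09% of all probe sets were called higher. Pdgfra (1421917_at) lay at 8.88 to 9.47 in DM, 8.46 to 8.70 in Bmp15-/- and 7.43 to 8.03 in wildtype. Krt18 (1448169_at) lay at 7.57 to 8.10, 7.14 to 7.89 and 6.40 to 6.86. Neither sum is taken as a measure of cell content here, and whether either follows it was not tested. The 3′ minus 5′ difference of the Gapdh control probe sets, a sign of RNA integrity and amplification, was 0.79 to 0.95 in DM, 0.66 to 0.73 in Bmp15-/- and 0.52 to 0.59 in wildtype, again in the order of Heyl. That of the actin control probe sets was 1.85 to 2.12, 1.85 to 1.92 and 1.87 to 1.90. The part of these measures in the Notch results was not tested. Without the 2 arrays highest in oocyte markers, Heyl 1419302_at, Heyl 1438886_at and Hey2 were still called lower in DM than in wildtype. Heyl 1419303_at (adjusted p 0.0727) and Jag2 1426430_at (adjusted p 0.053) then lost the call, and 0 probe sets of the 9 genes were called in Bmp15-/- against wildtype. The same 0 resulted without Bmp15-/- array 2, without Bmp15-/- array 3 or without wildtype array 1, 1 was called without Bmp15-/- array 1, wildtype array 2 or wildtype array 3, and 4 without DM array 3. In DM against wildtype all 5 calls held when any 1 array was left out.

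The genes with the most similar profile over the 9 arrays were looked up for Heyl and Hey2, the 2 of the 9 genes with the smallest p in DM against wildtype, among 13446 genes. For Heyl they were 2610301B20Rik (Pearson r 0.985), Twist2 (0.984), which encodes a helix-loop-helix repressor of mesenchyme, and Seh1l (0.983), a nucleoporin. Mean levels of Twist2 were 6.07 in DM, 6.79 in Bmp15-/- and 7.56 in wildtype, the same order as Heyl. For Hey2 they were Baz1b (0.986), a chromatin remodelling subunit, Exosc10 (0.986), an RNA exosome subunit, and Timm17a (0.985), part of the mitochondrial import channel. The 9 arrays of 3 genotypes are what these profiles share, so any gene that differs between genotypes in the same order scores high.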

How the data were processed

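Cumulus cell RNA (10 ng per sample, amplified) of 9 samples, 3 per genotype, was hybridised to 1 Affymetrix array each. The authors deposited log2 values for 45101 probe sets. RMA and the affy package are named per the submitters' processing notes, with versions and settings not given in the sources used here. On its log2 scale changes of dim transcripts are compressed. Values ran from 2.87 to 14.53, with array medians of 5.52 to 5.59. Scanner files were not used here.

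Groups were taken from the sample titles. Probe sets were named from the platform annotation, with symbols updated through RefSeq (GRCm38.p6): 34958 had a single gene, 932 more than that and 9211 no listed gene. Probe sets with at least 3 of 9 arrays above the 40th percentile of their own array entered 1 fit over all 9 arrays with limma 3.58.1 (lmFit and eBayes, R 4.3.3, version 1.17.8 of data.table), with genotype as the only term and 6 residual degrees of freedom. P values are 2-sided, Benjamini-Hochberg adjusted over 27991 probe sets. The script was tested on simulated data. Of the 9 genes any probe set could be named. Of other pathway genes, those with a called probe set were named, up to 4 per list by smallest p, and marker genes where their list moved with a result. Cell types were read from marker lists. The 9 genes and all lists were chosen with earlier results of these data known. The main fit did not pair samples by number. Deviations from genotype means correlated at -0.11 to 0.15 between same-numbered samples, with 2 of 9 over 0.1 and 5 of 9 best with their own number. These values do not settle whether the numbers mark pairs. Alternatives covered the filter, 1 probe set per gene, array scaling, the variance prior, a replicate block, the samples fitted and each array left out.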

Additional observations from a re-analysis of the deposited data

How the results depend on the processing

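No alternative turned the direction of a called difference among the 9 genes. Notch probe sets called in Bmp15-/- against wildtype, 2 as reported, numbered 4 with a 60th percentile filter, 4 with an intensity trend in the variance prior, 4 with only the 2 genotypes compared, 1 with quantile normalization and 1 with median and interquartile range scaling. They numbered 0 without both arrays highest in oocyte markers, an alternative chosen after seeing the data, and 0 to 4 with 1 array left out. In DM against wildtype the 5 of 15 became 6 of 18 with no filter and 4 of 9 with the 60th percentile filter. With 1 probe set per gene 3 of 8 were called, from the same 3 genes as reported. Without both oocyte-high arrays 3 of 15 were called, and the number stayed 5 with any 1 array left out. In DM against Bmp15-/- the 0 became 1, with the 60th percentile filter, 1 probe set per gene, the intensity trend or the replicate block, and 0 to 1 with 1 array left out. Over all probe sets, the 1772 calls in Bmp15-/- became 2860 with only those 2 genotypes, 165 without both oocyte-high arrays and 569 to 2397 with 1 array left out, of which 740 and 569 without Bmp15-/- arrays 2 and 3 and 775, 601 and 630 without wildtype arrays 1, 2 and 3. With 1 probe set per gene, 3780 of 13447 tested were called in DM against wildtype, where 6785 of 27991 were called as reported. The 6785 became 3324 without both oocyte-high arrays. They became 4393 to 7485 with 1 array left out, lowest without wildtype array 1 and 4425 without wildtype array 2. The 540 in DM against Bmp15-/- became 38, 23 and 73 to 1273 under the pair alone, without both oocyte-high arrays and with 1 array left out. The causes were not tested. With the replicate block the calls numbered 1447, 6358 and 406 in the 3 comparisons, and among the 9 genes 2, 5 and 1: in Bmp15-/- against wildtype Jag2 1426430_at lost its call (adjusted p 0.0571) and Heyl 1419302_at gained one (0.0417), and in DM against Bmp15-/- Heyl 1419302_at had an adjusted p of 0.0494. In 5 of 9 pairings the sample correlated best with its own number. Scaling moved the share of calls that were lower: in DM against wildtype 66.6% as reported, 54.6% with quantile normalization and 43.0% with interquartile range scaling, and in Bmp15-/- against wildtype 67.7%, 52.8% and 33.4%. In Bmp15-/- Jag2 was then lost under both (adjusted p 0.0862 and 0.0642). The Heyl 1419302_at difference in DM against wildtype ran from -1.69 to -1.33 over 19 alternatives and was called in all of them. Dim probe sets such as those of Notch3 lie near background, where a difference has no clear size.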
